A study of Danio rerio with 18 samples.

Results

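The 4 libraries labelled hi272_DMSO_Control, of 18 in the series, hold RNA from the livers of zebrafish larvae of control genotype in the solvent DMSO, and they were chosen by that title alone. The larvae came from parents of the strain ABNYU that each carried 1 copy of uhrf1-hi272, a viral insertion allele, and the livers used here came from larvae labelled Control, called WT in the design text after genotyping of each carcass. All parents carried Tg(fabp10a:CAAX-EGFP), a transgene in which the promoter of a hepatocyte fatty acid binding protein drives a membrane-bound green fluorescent protein, so the livers could be seen during dissection. Larvae were kept in 6-well plates in 0.5% DMSO, the solvent of the drug arm, from 48 hours post fertilization (hpf), and livers were dissected at 120 hpf and placed singly in TRIzol. Livers of the same genotype and treatment batch were then pooled, so each library is a pool and not an animal. Libraries were made from total RNA depleted of ribosomal RNA with a Ribo-Zero kit and were read from both ends. The labels do not say whether the pools came from separate clutches, so the p-values below speak for these 4 pools only. They set a gene's relation to the muscle share against the spread between pools, estimated in part from other genes.

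The liver is the body's main source of plasma proteins: hepatocytes secrete the apolipoproteins that carry lipids, the carriers of iron, retinol and hormones, and most clotting and complement factors. They also release glucose, make bile acids and sterols, break down amino acids and convert drugs and other foreign compounds for excretion. In a zebrafish larva the organ lies against the gut and pancreas and close to the body wall muscle, and its yolk-derived lipid supply passes through the same lipoprotein system. The questions taken from the design are which genes and functions made up the RNA of these control livers, and how each gene's level went with the share of muscle RNA among the 4 pools.

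The libraries held 5158465, 4141600, 5199301 and 5066810 counts in libraries 1 to 4, with 21741 to 22013 genes detected in each. Of 32105 gene IDs, 24527 had at least 1 count and 19301 had a count in all 4 libraries. No pair of libraries was identical. Averaged over the tested genes and scaled by library totals alone, the variance between pairs was 8.05 to 36.1 times that of counting. Levels are given as CPM, counts per 1000000 counts, on library sizes adjusted with TMM (trimmed mean of M-values) factors of 0.9393 to 1.139. No transcript lengths were used here, and a longer transcript gives more counts, so ranks are ranks of counts and no gene is said to be more abundant than another. Each level is a value from a bulk sample, in which fewer cells of a type and less RNA per cell cannot be told apart.

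A small number of genes took much of the RNA. In libraries 1, 2, 3 and 4 the 122, 208, 129 and 127 genes with the most counts took 50% of all counts, and the 10 with the most took 26%, 19.7%, 25.8% and 26.4%. Library 2 was the least concentrated of the pools on both measures. At the other end, 8172 to 9317 genes reached 10 CPM and 102 to 107 genes reached 1000 CPM in a library. IDs with no symbol in the reference table took 15.9%, 11.8%, 16.9% and 17.6% of the counts, and 5 of the 30 IDs with the most counts were among them. The first of these, ENSDARG00000080337, took 6.19%, 4.06%, 6.5% and 8.31%, and ENSDARG00000082753 took 3.86%, 2.52%, 4.68% and 5.25%. rn7sl1, the RNA of the signal recognition particle, which guides nascent secreted proteins to the endoplasmic reticulum, took 5.0%, 4.02%, 4.62% and 3.96%. It ranked 2 by its mean share and 2 or 3 in single libraries. This RNA carries no poly(A) tail, and the libraries were depleted of ribosomal RNA rather than selected for poly(A).

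**Figure D1:**
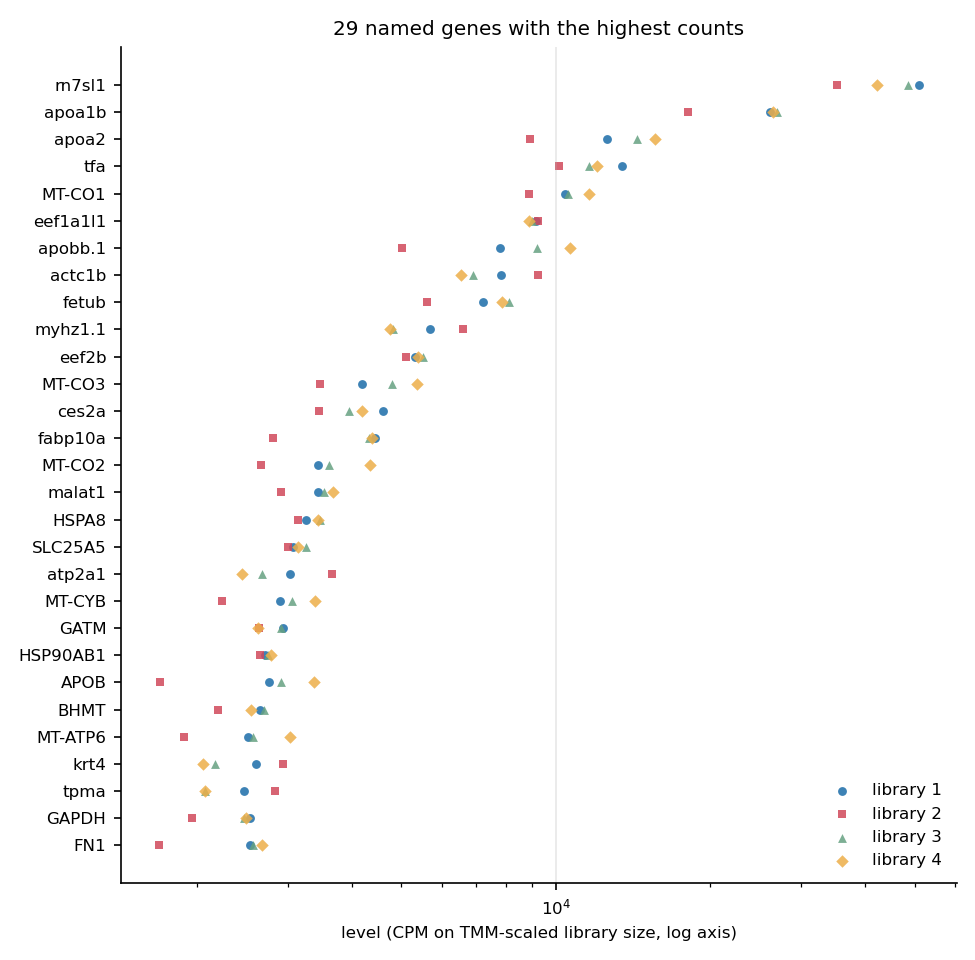
CPM (log axis) of 29 genes among the 30 with a usable symbol and the highest mean, by library; each point is 1 of the 4 libraries. Secreted liver proteins, mitochondrial transcripts, translation factors and contractile muscle genes stand among them, and apoa1b ranked 4 in every library.

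Genes of secreted liver proteins took a larger share of the counts than those of metabolism in every library, an order that turned to 8.15% against 9.45% on average without the 10 genes with the most counts. The 145 gene IDs listed as secreted by hepatocytes took 11.15%, 9.276%, 11.6% and 11.97% of the counts (11% ± 1.2, SD, n = 4), and library 2 was the lowest. That list also holds some proteins that stay in cells, such as fabp10a and the transcription factors CEBPB and CEBPD. The 424 IDs listed for metabolism took 6.781%, 6.342%, 7.64% and 7.756% (7.13% ± 0.68, SD, n = 4), with libraries 3 and 4 above libraries 1 and 2. Within these, apolipoproteins took 5.33% ± 0.703 and carrier proteins 3.50% ± 0.28 of the counts. Complement took 0.945% and coagulation factors 0.938%. Among metabolic lists, amino acid breakdown took 1.86%, glycolysis and gluconeogenesis 1.52%, conjugation and glutathione enzymes 1.03%, cytochrome P450 enzymes 0.785%, fatty acid oxidation 0.442% and sterol synthesis 0.397%. The share of a list depends on how many genes it holds and how long they are, so the order is one of counts taken and not of activity.

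**Figure D2:**
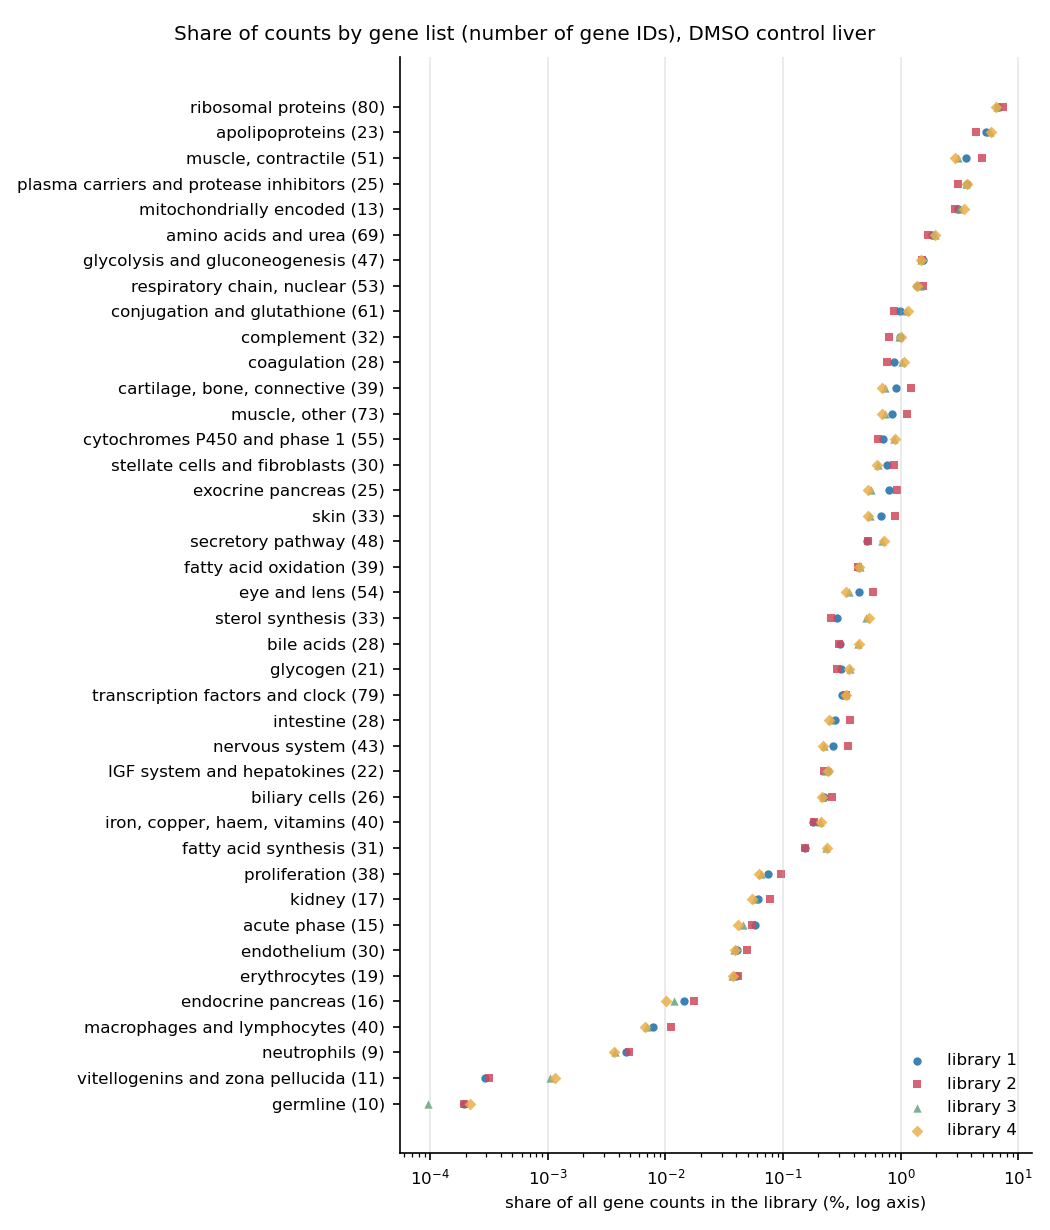
Percent of all gene counts taken by each gene list (log axis), with 1 point per library and the number of gene IDs in brackets. Apolipoproteins and carriers lead the lists of liver functions, and the germline, egg yolk and leukocyte lists are at or under 0.01113% in every library.

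Apolipoproteins were the leading secreted class. apoa1b (ENSDARG00000101324), a gene of apolipoprotein A-I, the main protein of high density lipoprotein, was at 26130, 18120, 26980 and 26440 CPM in libraries 1 to 4 (24420 ± 4213, SD, n = 4), and it alone made 45.3% of the list's counts. Only library 2 stood apart, below the others. apoa2 (ENSDARG00000015866), a second protein of high density lipoprotein, was at 12550, 8892, 14360 and 15600 CPM (12850 ± 2922) and ranked between 5 and 10. The apolipoprotein B gene apobb.1 (ENSDARG00000022767), the scaffold of very low density lipoprotein, was at 7765, 5009, 9179 and 10640 CPM (8148 ± 2399). A further gene annotated APOB was at 2754, 1692, 2914 and 3374 CPM, again lowest in library 2 and highest in library 4. apoc1, a small exchangeable apolipoprotein, was at 1609, 1065, 2085 and 2348 CPM in the same order of libraries. The apolipoprotein E gene apoeb and the second apolipoprotein A-I gene apoa1a had another order. apoeb was at 361.3, 439.5, 359.8 and 322.9 CPM and apoa1a at 403.8, 485.9, 381.8 and 372.3 CPM, both highest in library 2.

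Among carriers, tfa (ENSDARG00000016771), transferrin, which carries iron in plasma, was at 13430, 10140, 11620 and 12000 CPM (11800 ± 1350). fetub (ENSDARG00000053973), fetuin B, a plasma protease inhibitor, was at 7217, 5616, 8090 and 7837 CPM (7190 ± 1111). The fatty acid binding protein fabp10a (ENSDARG00000038439), whose promoter drives the transgene that marks these livers, was at 4447, 2805, 4327 and 4384 CPM (3991 ± 792), with library 2 apart from 3 nearly equal libraries. RBP4, the plasma carrier of retinol, was at 1691, 1148, 2417 and 2735 CPM (1998 ± 716). serpina1, the alpha-1 antitrypsin gene that encodes an inhibitor of neutrophil elastase, was at 2183, 1499, 2612 and 2895 CPM (2297 ± 607). Both were highest in library 4 and lowest in library 2. Markers that define the tissue as liver were at high counts in all 4 pools, fabp10a ranking between 20 and 27 and tfa between 6 and 8.

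Clotting and complement genes were detected for most listed members. Of 33 coagulation symbols 26 matched an ID, and of 37 complement symbols 32 did. Of the 28 and 32 IDs matched, 27 and 31 had at least 1 count, and 25 and 21 reached a mean of 10 CPM. The fibrinogen chain genes fga and FGB, which form the clot, were at 1303, 1010, 1687 and 1613 CPM and at 1079, 854.8, 1476 and 1398 CPM. PLG, plasminogen, the precursor of the enzyme that dissolves clots, was at 951.8, 702, 1223 and 1258 CPM (1034 ± 260). For these genes libraries 3 and 4 were above library 1, and library 2 was the lowest. c3a.1, a copy of complement C3, the protein on which the complement pathways meet, was at 2151, 1447, 2283 and 2378 CPM. c9, which forms the membrane pore, was at 988.2, 694.8, 899.9 and 971.6 CPM. The C3 copies lie close together and are alike in sequence, so how reads were divided between them is uncertain.

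Some classes linked to an adult or inflamed liver had low counts here, and no such liver was compared. Of 24 acute phase symbols only 14 matched an ID, so the list is incomplete. The 15 acute phase IDs took 0.05003% of the counts, and the transcription factor gene CEBPD made 26.2% of these. crp5, a C-reactive protein gene, was at 174.7, 105.6, 84.96 and 67.24 CPM, high in library 1. hamp, hepcidin, which limits iron export from cells, was at 4.546, 9.965, 25.43 and 42.86 CPM, low in library 1 and high in library 4. The list of egg yolk and egg coat genes that adult females express in response to estrogen held 11 IDs. Of these, 5 had no count, among them vtg2, vtg4 and the estrogen receptor gene ESR1. vtg7, a vitellogenin gene, was at 1.98, 1.27, 10.7 and 12.2 CPM. A count of 0 over the 19566176 counts of the 4 libraries allows a level of up to 0.153 CPM (3 counts), a limit that covers counting error only.

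Among the enzymes of glucose metabolism, PCK1, which commits carbon to gluconeogenesis, was at 1847, 1628, 1726 and 1630 CPM (1708 ± 104) and differed little between pools. G6PC1_013721, where the digits are the end of the gene ID because several IDs share the symbol, is the enzyme that frees glucose for export. It was at 463.9, 340.3, 704.9 and 747.8 CPM (564 ± 195), higher in libraries 3 and 4. PYGL, the liver glycogen phosphorylase, showed the same split at 910.7, 723.8, 1313 and 1304 CPM (1063 ± 294).

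Amino acid breakdown held BHMT, which remethylates homocysteine with betaine, at 2646, 2191, 2702 and 2542 CPM (2520 ± 229). AGXT_018478, which removes glyoxylate in mammals, was at 1846, 1402, 2495 and 2570 CPM (2078 ± 556). glud1b, a glutamate dehydrogenase that releases ammonia, was at 1884, 1489, 2085 and 2165 CPM. FAH, the last enzyme of tyrosine breakdown, was at 122.5, 61.27, 204 and 217 CPM (151 ± 73.1), with library 2 far below the rest. Of the 69 listed IDs, 59 reached a mean of 10 CPM. The urea cycle genes, named here after their values were seen, had few counts: libraries 1 to 4 held 4, 6, 4 and 16 counts of CPS1, which makes carbamoyl phosphate from ammonia. OTC, the next enzyme, had 5, 7, 11 and 6 counts, and ARG1, the arginase of mammalian liver, had 8, 3, 4 and 2 counts. ASS1 had 28, 23, 25 and 17 counts and ASL 22, 18, 13 and 15, so each of these genes had at most 28 counts in any pool. ARG2, the mitochondrial arginase, was at 91.11, 92.01, 68.62 and 65.76 CPM, slightly higher in libraries 1 and 2.

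Sterol synthesis genes varied more between pools than most genes. The median coefficient of variation (CV, the SD over the mean across the 4 libraries) was 41.7% over the 24 sterol synthesis genes at 20 CPM or more, against 15.6% over all 5292 such genes and 13.5% over 32 genes of fatty acid oxidation. HMGCS1, which makes an early intermediate of sterol synthesis, was at 525.1, 365.3, 1161 and 1188 CPM. Libraries 3 and 4 were above libraries 1 and 2. The fatty acid oxidation genes with the most counts, ACADVL and ACADM, acyl-CoA dehydrogenases for long and medium chains, were at 432 ± 32.5 and 411 ± 22.8 CPM. The bile salt export pump ABCB11 was at 696.1, 539.6, 1141 and 1193 CPM (892 ± 324). The organic anion transporter slco1d1 was at 592.9, 434.2, 965.5 and 990.9 CPM, in the same order of libraries. CYP7A1, the rate-limiting enzyme of bile acid synthesis and named after its values were seen, was at 13.4, 19.5, 22.2 and 26.7 CPM.

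Among enzymes for foreign compounds, ces2a, a carboxylesterase, which cleaves esters, was at 4602, 3454, 3957 and 4181 CPM (4049 ± 478). CYP1A1 (ENSDARG00000098315), the P450 enzyme induced through the aryl hydrocarbon receptor, was at 1844, 1271, 3115 and 3333 CPM (2391 ± 994), higher in libraries 3 and 4. CYP24A1, which inactivates vitamin D, was at 1485, 1073, 708.6 and 693.6 CPM, higher in libraries 1 and 2. Hepatocyte transcription factors took 0.334% of the counts over 79 IDs. HNF4A, a nuclear receptor that maintains hepatocyte identity, was at 42.1, 27.56, 69.42 and 70.6 CPM (52.4 ± 21.2). The member with the most counts, tefa, a clock output factor, was at 192.3, 162.4, 201.6 and 209.9 CPM. XBP1, a factor of the response to unfolded proteins, and the clock genes PER3 and NR1D1 followed at means of 185, 172 and 161 CPM. Clock genes that cycle in opposite phase to these include BMAL1_006791, which was named after its values were seen and was at a mean of 4.35 CPM. UHRF1 (ENSDARG00000103409), the gene of the hi272 allele and a DNA methylation cofactor, was at 33.8, 40.92, 23.61 and 28.58 CPM (31.7 ± 7.41), so its RNA was found in all 4 control pools.

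Related genes were compared as shares of each pair's counts for 24 of 53 listed pairs, those in which each symbol matched a single ID. Many are copies that zebrafish retain from an ancient genome duplication or from tandem copying. Others are family members that mammals also have: PCK1 and pck2, GYS1 and GYS2, PYGL and PYGB, and FITM1 and FITM2. In 7 pairs one member took over 90% of the counts in every library, and in 21 pairs the same member was ahead in all 4 libraries. fabp10a took 100% of its pair, as fabp10b had a mean of 0.0999 CPM. apoa1a took 1.73% (range 1.39% to 2.61%) of its pair with apoa1b, and apobb.1 took 97.4% (96.4% to 98.1%) of its pair with apobb.2. glud1a took 8.39% against glud1b, and fbp1a, a fructose bisphosphatase, 2.82% against fbp1b. Other pairs were shared: hpxa took 34.4% against hpxb, both hemopexins that bind heme, and igf2a took 36.7% against igf2b. The pairs creb3l3a and creb3l3b, ghra and ghrb, and FITM1 and FITM2 changed order between libraries. Reads that fit both copies may have been dropped or divided by the authors' counting, which was not tested.

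RNA of other tissues was present in every pool. The 51 contractile muscle IDs took 3.609%, 4.908%, 3.059% and 2.877% of the counts (3.61% ± 0.918, SD, n = 4), most in library 2 and least in library 4. actc1b, an actin gene, was at 7812, 9239, 6899 and 6517 CPM and ranked 14, and atp2a1, the calcium pump of fast muscle, which is not among the 51, was at 3027, 3656, 2680 and 2450 CPM. Cartilage, bone and connective tissue genes took 0.898% ± 0.242, skin genes 0.666% ± 0.170 and genes of the exocrine pancreas 0.706% ± 0.198. Of 39 exocrine pancreas symbols 23 matched an ID, and of 63 contractile symbols 50 did, so both lists are incomplete. krt5, a keratin of the skin, was at 1611, 1902, 1315 and 1287 CPM. The trypsin gene prss1 of the pancreas was at 1389, 1364, 969.1 and 940.5 CPM. The lens crystallin CRYBA4 averaged 327 ± 49.0 CPM. For all these lists library 2 was the highest and library 4 the lowest.

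Lists of leukocytes, endothelium and red cells took little of the RNA, and that of stellate cells and fibroblasts took more. The 30 stellate and fibroblast IDs, of which 8 also stand in other lists, took 0.7734%, 0.8791%, 0.6478% and 0.6348% of the counts. FN1_006526, a fibronectin gene that hepatocytes also express, was at 2537, 1684, 2571 and 2678 CPM and made 32.5% of that list's counts. The collagen genes col1a1a, COL1A1 and COL1A2, which also stand in the connective tissue list, took mean shares of 0.188%, 0.121% and 0.0875%. Leukocyte and macrophage genes took 0.00816% of the counts, and 8 of their 40 IDs had no count, among them ighm, cd79a, c1qc and tnfa. Their best counted member, SLC7A7, an amino acid transporter, averaged 16.8 CPM. csf1ra, the macrophage growth factor receptor, averaged 8.26 CPM. The 30 endothelial IDs took 0.0418%, with kdrl, a vascular growth factor receptor, at 57.0 CPM. Biliary genes took 0.229% ± 0.0226, but krt8, at 578.7, 562.7, 573.3 and 549.6 CPM, is also a keratin of other epithelia. Red cell genes took 0.0389%, and RHAG made 55.0% of that list's counts. Of 25 red cell symbols 18 matched an ID, so the list is incomplete. The hemoglobin subunit hbae3 stood at 75.5, 95.19, 63.17 and 68.71 CPM, while the listed copies hbaa2 and hbbe3 had no count. Globin copies are nearly identical, and their counts are uncertain for that reason.

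The relation of each gene to the muscle share was then fitted across the 4 pools. The slope is the log2 change in a gene's TMM-scaled level per percentage point of the contractile share, whose range was 2.03 points. The contractile genes that define the share had a median slope of 0.24 on this scale, which is given for reference and is no result. Of 13510 genes tested with edgeR's quasi-likelihood test, 193 had a slope above 0 and 740 a slope below 0 at a Benjamini-Hochberg adjusted p under 0.05, which are 1.43% and 5.48% of the genes tested. The 4 pools give 2 residual degrees of freedom. The fit therefore took much of each gene's error term from other genes (median prior degrees of freedom 14.43). In an exact permutation of ranks over the 24 pairings of levels and shares, which was not run, the smallest possible two-sided p is 0.0833. No single gene could pass such a test. The counts rest on single libraries: without library 4 there were 1 higher and 110 lower genes, and without library 1 there were 679 and 1329. Without library 3, 55 were higher, and without library 2 the numbers were 175 and 522. They also rest on the scaling: with library size alone the median slope of all genes moved from 0.005 to 0.143, and 1042 genes were higher and 383 lower, so 73.1% of the called genes were higher in place of 20.7%. Slopes below are relative to the TMM scaling, and 576 genes were called under both scalings, none with opposite sign. List counts under an alternative are to be read against the totals over all genes in the same setting.

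**Figure D3:**
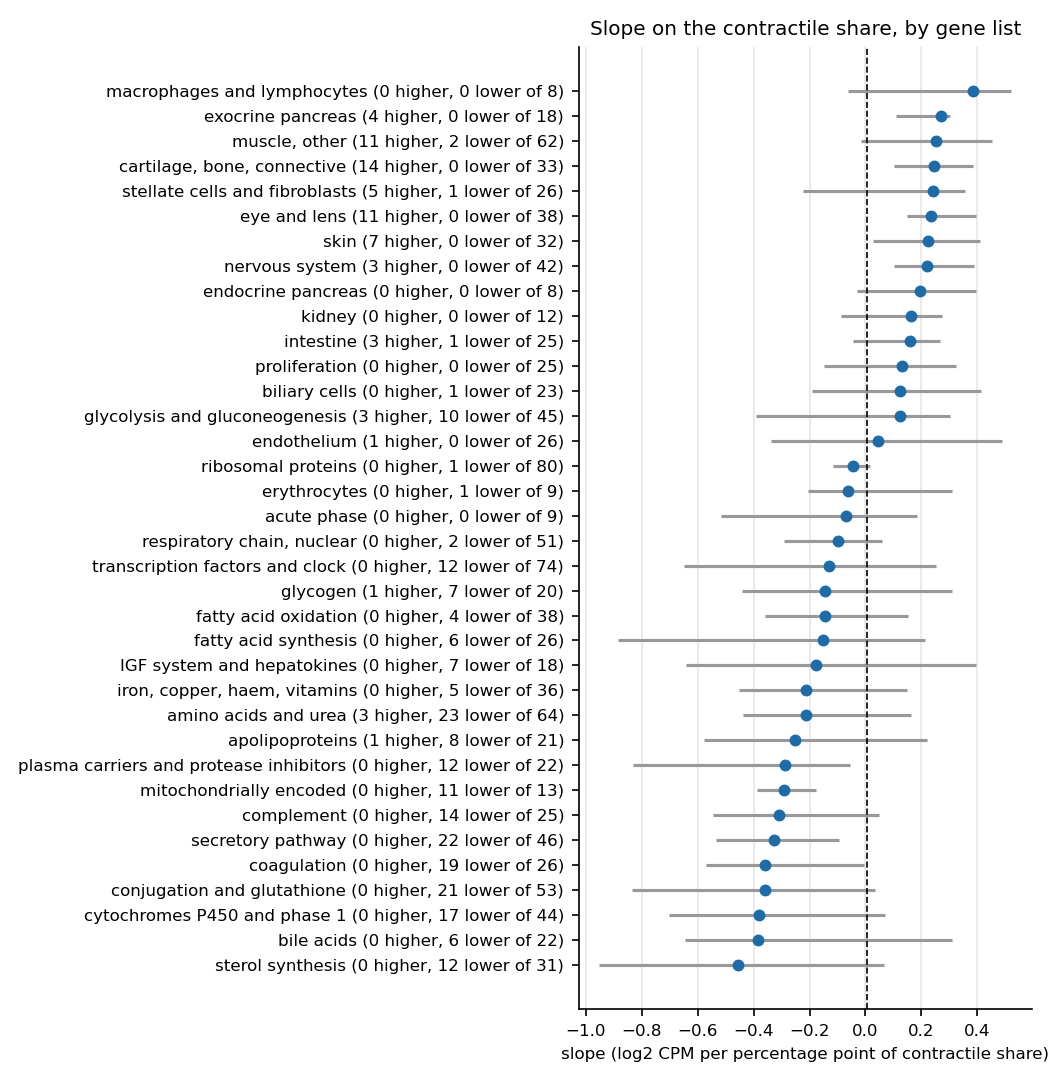
Slope on the contractile muscle share (log2 change per percentage point) by gene list, with the numbers called in brackets. Points are medians over the tested members, grey bars run from the 10th to the 90th percentile of members, and the dashed line is the median of all genes tested; medians of the carrier, coagulation, P450 and sterol lists lie below it and those of skin, eye, cartilage and pancreas above it.

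Genes of secreted liver proteins went down as the muscle share went up. The list used also holds some proteins that stay in cells, as said above. Over all genes tested, 5.48% were lower and 1.43% higher. Of 121 tested members of the list, 60 were lower and 1 was higher, with a median slope of -0.30 against 0.005 over all genes. The median stayed below 0 with library size alone and under every other alternative tried, and it was -0.17 with library size alone, where 41 members were lower. Without library 4, 30 were lower, and without library 2, 40 were lower. Coagulation factors had the most members called of these lists, 19 of 26, followed by complement with 14 of 25 and carriers with 12 of 22. Without library 4 these were 7, 5 and 9, and without library 2 they were 12, 8 and 8. With library size alone they were 11, 8 and 9. Of 21 apolipoproteins 8 were lower and 1, apoa1a, was higher with a slope of 0.19 (adjusted p = 0.0447, edgeR), a call lost without library 2, 3 or 4 (adjusted p = 0.636, 0.223 and 0.366) and with DESeq2 (adjusted p = 0.166). None of the 9 acute phase genes tested passed in edgeR or DESeq2, and 0 had an unadjusted p under 0.05. Without library 2, 2 were higher and 1 lower, and without library 1, 1 was higher and 1 lower. The adjusted p-values given for single genes are from the same edgeR fit.

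The slopes of single genes in the list of secreted proteins, which includes the cellular protein fabp10a, fell into a steady and an unsteady set. apobb.1 fell by 0.51 per point on the log2 scale (SE 0.0382, adjusted p = 1.34e-06 in edgeR), and its slope stayed between -0.56 and -0.48 when any library was left out. apoa2 fell by 0.39 (SE 0.0336, adjusted p = 4.94e-06, edgeR), between -0.40 and -0.38. These genes ordered the 4 pools exactly opposite to the muscle share. serpina7, an inhibitor family member that carries thyroid hormone in mammals, was at 55.14, 25.87, 82.14 and 110.9 CPM and fell by 0.99 (adjusted p = 3.76e-05, edgeR). RBP4 fell by 0.60 (SE 0.053, adjusted p = 5.23e-06, edgeR), and without library 2 its slope was -0.93. PLG fell by 0.42 and f5, coagulation factor V, by 0.56, and both stayed called whichever library was left out. By contrast, apoa1b fell by 0.29 (adjusted p = 0.000281, edgeR) in the 4 pools, but without library 2 its slope was -0.02 with an adjusted p of 0.961. fabp10a fell by 0.33 (adjusted p = 0.00109, edgeR), and without library 2 its slope was 0.05 with an adjusted p of 0.889. For both genes library 2 alone was low, and tfa did not pass in the 4 pools (slope -0.12, adjusted p = 0.29, edgeR).

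**Figure D4:**
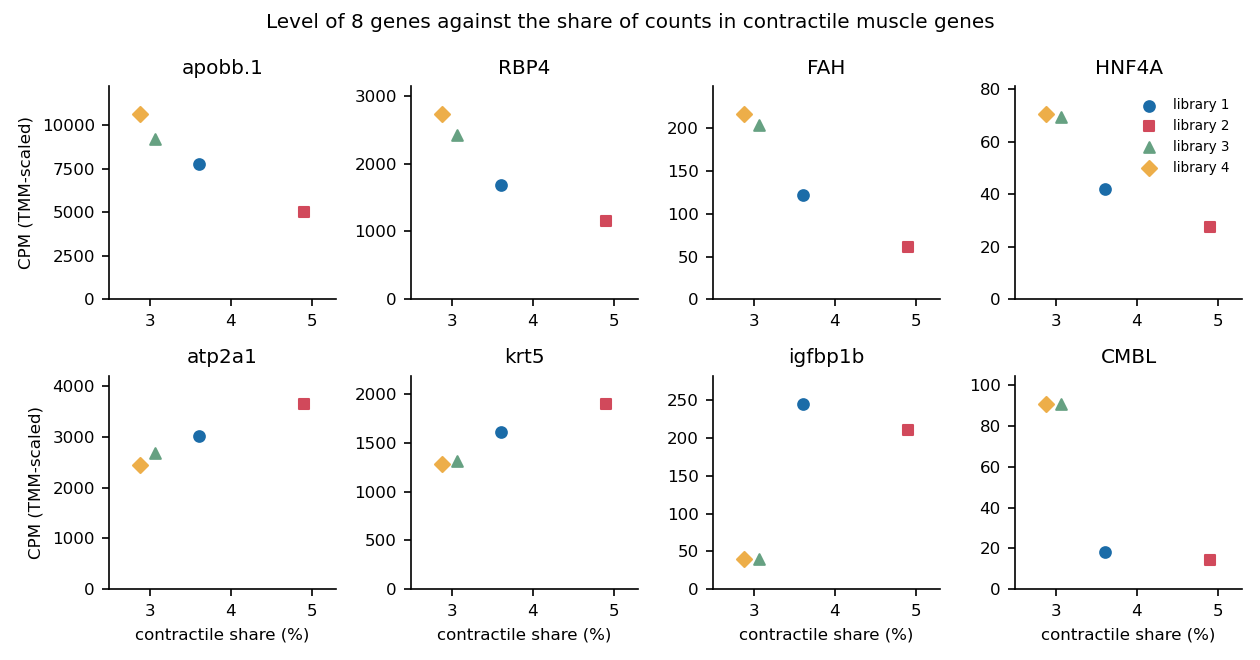
CPM (linear axes that start at 0) of 8 genes against the percent of counts in contractile muscle genes, with 1 point per library. apobb.1, RBP4, FAH and HNF4A are lowest in the library with the most muscle RNA, atp2a1 and krt5 are highest there, and igfbp1b and CMBL split libraries 1 and 2 from libraries 3 and 4.

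Most metabolic lists also had medians below 0, with the list of glycolysis and gluconeogenesis as the exception at 0.12. Of its 47 IDs, 4 (copies of ALDOA and PFKM) also stand in the list of other muscle genes, as do 2 PYGM IDs of the glycogen list. The part of these IDs in the medians was not tested. Of 379 tested metabolic genes 111 were lower and 7 higher, with a median slope of -0.23. Over all genes tested, 5.48% were lower and 1.43% higher. Without library 4, 25 of the metabolic genes were lower, and without library 1, 186. Over all genes these settings gave 110 of 14046 and 1329 of 13783 lower. Cytochrome P450 genes had 17 of 44 lower, conjugation and glutathione genes 21 of 53, and sterol synthesis 12 of 31 with a median of -0.46. Without library 4 these were 3, 6 and 6, and without library 1 they were 24, 33 and 20. With library size alone they were 9, 14 and 10. FAH had the steepest slope of the steady amino acid genes, -0.92 (SE 0.081, adjusted p = 5.23e-06, edgeR), between -1.16 and -0.89 over the libraries left out. gstt1a, a glutathione transferase, was at 124.5, 70.81, 246.2 and 253.4 CPM and fell by 0.94 per point (adjusted p = 1.6e-05, edgeR), or -1.47 without library 2. TM7SF2, a sterol reductase in mammals, was at 32.61, 15.48, 61.55 and 62.61 CPM and fell by 1.04 (adjusted p = 0.00013, edgeR). For these genes libraries 3 and 4 were high and close together while library 2 was lowest.

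Several metabolic slopes grew by over 1.5 times without library 2, whose share was the highest. G6PC1_013721 fell by 0.56 (adjusted p = 7.86e-05, edgeR) in the 4 pools and its slope was -0.96 without library 2. PYGL moved from -0.44 to -0.75, and AGXT_018478 from -0.44 to -0.67. ABCB11 moved from -0.57 to -1.10 and slco1d1 from -0.60 to -1.06, and all of these stayed called. CYP1A1 fell by 0.69 (adjusted p = 0.00417, edgeR), with a slope of -1.20 without library 2 and an adjusted p of 0.059 with library size alone. Of the glycolysis and gluconeogenesis list, 10 of 45 were lower and 3 higher, around a median of 0.12, and without library 4, 1 was lower and 0 higher. Fatty acid oxidation had 4 of 38 lower at a median of -0.15, with 0 lower without library 4 or with library size alone and 17 without library 1.

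Genes of the endoplasmic reticulum and secretory pathway, which bulk RNA cannot assign to hepatocytes, also had a median slope below 0. Of the 46 tested, 22 were lower and none higher in the 4 pools, against 5.48% lower of all genes, with a median slope of -0.33. Without library 4, 1 was lower, without library 3, 13, and with library size alone, 5. P4HB, a protein disulfide isomerase that forms disulfide bonds in new proteins, was at 506.8, 370, 639.1 and 688.1 CPM and fell by 0.44 (adjusted p = 0.000166, edgeR). Of 13 mitochondrially encoded genes 11 were lower, but 0 without library 4 and 3 without library 2. HNF4A fell by 0.70 (SE 0.112, adjusted p = 0.00109, edgeR), with a slope of -1.07 without library 2, within a list of 74 transcription factors of which 12 were lower. Without library 4, 2 of them were lower, and without library 1, 20. That list's median was -0.13 and changed sign to 0.01 with library size alone. Ribosomal protein genes had 1 of 80 lower, 10 without library 1, and a median of -0.04, which became 0.09 with library size alone. Over all genes, 1329 of 13783 were lower without library 1.

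Where genes of other tissues passed, nearly all had slopes above 0. In the 4 pools 14 of 33 cartilage, bone and connective tissue genes were higher, 11 of 38 eye genes, 7 of 32 skin genes, 4 of 18 pancreas genes and 3 of 42 nervous system genes, with none lower in these lists. Their medians were 0.25, 0.23, 0.22, 0.27 and 0.22. Of all genes tested in the 4 pools, 1.43% were higher. With library size alone 24, 25, 18, 16 and 23 of them were higher, and with DESeq2 5, 1, 5, 4 and 1. Of all 13510 genes tested, 1042 and 66 were higher in these settings. The intestine list had 3 of 25 higher and 1 lower, and in the kidney and endocrine pancreas lists 0 of 12 and 0 of 8 passed in edgeR or DESeq2, with 2 in each at an unadjusted p under 0.05. Some higher genes stand in a liver list as well. apoa1a, the higher apolipoprotein, is also in the intestine list. GLUL_099776 and GLUL_100003 are in the nervous system list and in that of amino acids, and both were higher (adjusted p = 0.0446 and 0.0367, edgeR). Both calls were lost without library 2, 3 or 4 and with DESeq2 (adjusted p = 0.105 and 0.0903). Of 62 muscle genes not used for the share, 11 were higher and 2 lower at a median of 0.25. Without library 4 none of these lists had a gene called higher, and without library 3 the eye, pancreas and nervous system lists had none. Without library 1 the numbers of the same 5 lists were 21, 21, 15, 14 and 16, and without library 2 they were 4, 6, 3, 12 and 3. Over all genes, 679 of 13783 were higher without library 1 and 175 of 13800 without library 2. atp2a1 rose by 0.27 (adjusted p = 0.000768, edgeR), krt5 by 0.28 (adjusted p = 0.00126, edgeR) and COL1A1, a chain of bone and skin collagen, by 0.26 (adjusted p = 0.00239, edgeR). Without library 4 their slopes were 0.23, 0.27 and 0.25 with adjusted p-values of 0.106, 0.111 and 0.146. Without library 2 the slope of krt5 was 0.48, and those of atp2a1 and COL1A1 were 0.41 in both cases. The part of these tissues in the slopes of liver genes was not tested. Their shares had the same order of libraries as the muscle share, so they cannot be told apart from it. Of 9 red cell genes 1 was lower, RHAG, with a slope of -0.27 (adjusted p = 0.0184, edgeR). That call was lost without library 2, 3 or 4 and with library size alone. hbae3 had a slope of 0.27 (adjusted p = 0.0773, edgeR). None of 8 leukocyte genes passed in edgeR or DESeq2, and 2 had an unadjusted p under 0.05. The leukocyte list was at summed shares of 0.007851%, 0.01113%, 0.00702% and 0.006651%.

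The steepest slopes that passed belonged to genes with few counts. bco2l, a carotenoid cleaving oxygenase, was at 9.487, 2.12, 22.2 and 25.21 CPM and fell by 1.81 (adjusted p = 0.000152, edgeR), between -1.96 and -1.77 over the libraries left out. apoc4 followed at -1.52 and FGF19, an intestinal hormone in mammals that represses bile acid synthesis, at -1.50. FGF19 was at 3.16, 1.91, 10.7 and 13.9 CPM, and without library 4 its adjusted p was 0.151. apoc4 lost its call without library 2 (adjusted p = 0.203). Among the genes that passed in the other direction the steepest was spa17, known as a sperm protein in mammals, at 7.313, 15.48, 2.422 and 3.992 CPM, with a slope of 1.11 (adjusted p = 0.0122, edgeR). Its adjusted p was 0.295 without library 2 and 0.0895 without library 4. Each of the 10 steepest higher genes lost its call without at least 1 library.

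The genes that differed most between pools had another order of libraries. Among genes with a mean of at least 20 CPM, igfbp1b, an insulin-like growth factor binding protein that rises in fasting mammals, was at 245.5, 210.3, 39.55 and 40.13 CPM, a CV of 81.8%. CMBL, a hydrolase, was at 18.38, 14.2, 91.02 and 90.98 CPM. zbtb16b, a zinc finger transcription factor gene, was at 42.69, 23.96, 8.274 and 8.825 CPM. Together with HEBP2 (29.25, 26.5, 115.4 and 123.1 CPM), these genes set libraries 1 and 2 apart from libraries 3 and 4, in one direction or the other. hamp had the highest CV, 83.2%. Of the 10 most variable genes only rnd2, a small GTPase gene at 11.86, 10.6, 39.96 and 36.35 CPM, passed the slope test (slope -0.99, adjusted p = 0.0174, edgeR), and without library 4 its adjusted p was 0.176. CMBL had an adjusted p of 0.281 and igfbp1b of 0.575 in the 4 pools, but both passed without library 1 or 2, with slopes without library 2 of -3.30 and 3.93, and CMBL also with DESeq2 (adjusted p = 0.0436). The labels give no batch, plate or date for the pools, so the cause of the split was not tested.

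**Figure D5:**
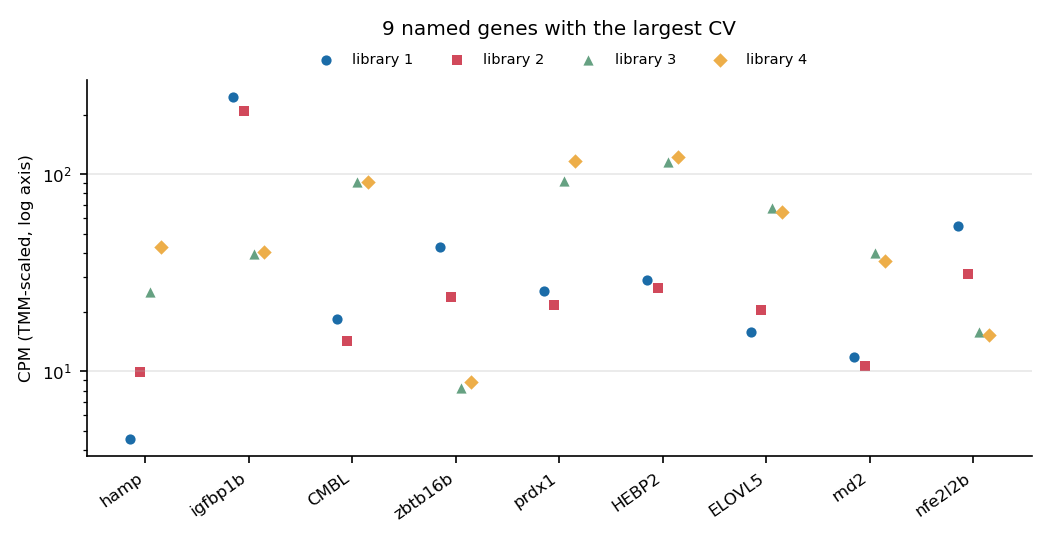
CPM (log axis) by library of 9 of the 10 named genes with the largest CV among those with a mean of at least 20 CPM. igfbp1b, zbtb16b and nfe2l2b are higher in libraries 1 and 2, and the other 6 genes are higher in libraries 3 and 4.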

How the data were processed

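The authors deposited whole-number counts per gene for each library, and these counts were used as deposited. Before counting, Trimmomatic 0.36 and FastQC 0.11.5 were run on the reads, per the submitters' processing notes. What aligned and counted the reads, on which build and strand, is not given in the sources used here: overlapping and antisense genes could not be told apart. Library totals of 4141600 to 5199301 counts set the precision of low genes.

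From the counts, TMM-scaled CPM, ranks, shares of all counts and the CV were computed (Python 3.11.15, edgeR 4.0.16 in R 4.3.3). Slopes on the contractile share came from edgeR's quasi-likelihood fit with robust dispersion (median prior degrees of freedom 14.43), after filterByExpr with a minimum count of 10 kept 13510 genes with 98.82% of the counts. Calls were made at a Benjamini-Hochberg false discovery rate of 0.05. On simulated slopes of 0.25, 0.5 and 1, 2.99%, 40.3% and 83.3% of changed genes were recovered, and 3 unchanged genes of 13094 genes tested were called. The simulation drew each gene independently, with no shift shared by many genes of a library. It therefore does not measure how many calls were false in the real libraries.

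Symbols for 26269 of 32105 IDs came from the reference table, and 20334 IDs could be named by a symbol. Where several IDs share a symbol, the last 6 digits of the ID were added. Named genes are the 30 with the most counts, the 4 best counted and 3 smallest p-values of each list, the 10 steepest slopes each way at 5 CPM or more, the duplicates, a fixed list and the 10 most variable genes at 20 CPM or more. Genes outside this rule are marked as named after their values were seen. Members and lists were chosen with earlier results of these data known. Length-scaled levels had been planned and could not be computed without transcript lengths. Alternatives were other scalings, DESeq2 1.42.0, no filter, other measures of the muscle share and leaving out each library. Some genes are not reported here.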

Additional observations from a re-analysis of the deposited data

Results flagged for a closer look

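Of 92 values tested for one library standing apart from the other 3, 7 passed Dixon's critical value for the gap over the range; chance passes about 1 in 20 such groups. Library 2 was the lowest for the share of carrier proteins, at 3.09% of the counts, where the others were at 3.6% to 3.68%. It was also the lowest for apoa1b at 18100 CPM, fabp10a at 2810 CPM, GAPDH at 1960 CPM and FN1_006526, a fibronectin gene, at 1680 CPM. The share of biliary genes was highest in library 2, at 0.263%. The share of glycolysis and gluconeogenesis genes was highest in library 1, at 1.56% against 1.5% to 1.51%. Library 2 also had the highest contractile muscle share and the fewest counts, and the part of either in these values was not tested.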

How the results depend on the processing

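No paired analysis was possible because the libraries form 1 group. Of the 193 higher and 740 lower genes (933 in all), library size alone gave 1042, 383 and 1425, and library size without contractile counts gave 1206, 350 and 1556, with 77.5% of calls higher and an all-gene median slope of 0.158. DESeq2 called 66 genes higher. Leaving out one library gave 1 to 679 higher, 110 to 1329 lower and 111 to 2008 in all. The 60 lower secreted protein genes became 39 without contractile counts in the library size and 30 to 75 over the libraries left out. The 111 lower metabolic genes became 63 with library size alone, 55 without contractile counts and 25 to 186. Shares depended on the denominator. Over genes with a RefSeq protein the contractile, secreted and metabolic shares were 5.02%, 15.6% and 9.82%, and without the 10 highest genes 4.74%, 8.15% and 9.45%. Of 147 slopes examined singly, 108 were called and 43 kept their direction and side of the threshold in every alternative. DESeq2 gave no adjusted p for 30 of them. Over the libraries left out the slopes of fabp10a, SPRED3 and RBMS2 ran from -0.37 to 0.054, -0.96 to 0.94 and -0.38 to 0.98, turning without library 2; the cause was not tested. Medians of the nuclear oxidative phosphorylation, ribosomal, transcription factor, acute phase and red cell lists also changed sign with library size alone. The median CV over libraries left out was added after seeing the data. Length-scaled levels, duplicate ratios and gene numbers were not run. Depth limits genes of a few counts.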

Other observations

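The first principal component of the 4 libraries took 53.8% of the variance. Libraries 1 to 4 were at 14.09, 37.54, -22.44 and -29.2 on it, the same order as their muscle shares. The second principal component took 24.3% of the variance. It set library 1, at 29.9, apart from libraries 2, 3 and 4, at -19.2, -2.19 and -8.53. Genes with high weights on the second component were chosen after their values were seen and carry no test. insig1, which holds back sterol synthesis in the endoplasmic reticulum, was at 41.11, 20.35, 20.99 and 23.95 CPM in libraries 1 to 4. LECT2_033227, a secreted liver protein that attracts leukocytes, was at 39.53, 17.6, 24.22 and 25.84 CPM. PTK2, a focal adhesion kinase, was at 11.86, 26.29, 23.21 and 20.38 CPM. TAT, which starts tyrosine breakdown, was at 714.5, 487.4, 198.6 and 212.2 CPM, highest in library 1 and lowest in library 3, while FAH, the last enzyme of that route, was highest in library 4.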
